A study of Mus musculus with 99 samples.

Results

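The converted inner hair cells (cIHCs) of postnatal day 42 were 67 single cells, taken as every column of the count table whose title begins with the prefix for that age and name, out of 99 cells in all. They came from C57BL/6 mice of the genotype Slc26a5-CreER/+; Rosa26Tbx2/+, in which an inducible Cre recombinase under the control of the prestin gene, active in outer hair cells, switches on the transcription factor Tbx2 from the Rosa26 locus. The other 32 cells were wild-type outer hair cells (OHCs) of postnatal day 30 from Slc26a5-CreER/+; Ai9/+ mice, where Ai9 is a tdTomato reporter. Their values stand here only beside those of the cIHCs, since age and genotype differ together. All cells were tdTomato-positive cells picked by hand from digested cochleae, and full-length cDNA of each was amplified and sequenced. The age at induction is not given in the sources used here, no title names an endogenous inner hair cell, and the protocol text speaks of picked endogenous inner hair cells and iOHCs, so the titles were followed.

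Inner hair cells turn the movement of their stereocilia into graded release of glutamate onto the auditory nerve, at ribbon synapses that use the calcium sensor otoferlin and the glutamate transporter VGLUT3. Outer hair cells amplify the sound wave through the motor protein prestin and hold a large store of the calcium buffer oncomodulin. Tbx2 is known as a factor that sets inner over outer hair cell identity.

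The labels name no animal, so the 67 cells counted as 1 sample and no test was made. Every SD, range and coefficient of variation (CV, the SD over cells divided by the mean) is a spread between cells and not an error over animals. Levels are in CPM, the count of a gene per 1000000 counts of its cell. Total counts per cIHC ran from 4677682 to 13792672, with a median of 7757517. The genes with at least 1 read numbered 7081 to 11719 per cell, with a median of 8546. Xist reached 10 CPM in 55 cells and a Y-linked gene in the other 12 cells, so the cells came from at least 1 female and 1 male. Intervals given below are exact Clopper-Pearson 95% intervals for a share of cells. They take the 67 cells as independent draws and do not cover differences between animals. PCR copies were not marked by molecular identifiers.

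The label was checked on 6 inner hair cell markers. Tbx2, which the Rosa26 allele also supplies and whose 2 sources cannot be told apart in these counts, ran from 112.7 to 2643 CPM with a median of 583.9 CPM. Slc17a8, the gene of VGLUT3, ran from 419.0 to 2979 CPM with a median of 1093 CPM. Otof, the gene of otoferlin, ran from 299.3 to 6075 CPM with a median of 2842 CPM. Atp2a3, an endoplasmic reticulum calcium pump, ran from 235.6 to 2458 CPM around a median of 1269 CPM. Calb2, the gene of the calcium buffer calretinin, ran from 538.9 to 9755 CPM around a median of 3854 CPM. These 5 genes had reads in all 67 cells and at least 10 CPM in each. Shtn1, which encodes the axon growth protein shootin-1, had reads in 65 cells, a median of 243.7 CPM and a highest cell of 948.5 CPM. Slc26a5, the prestin gene, had reads in 7 cells, or 10.4% (4.30 to 20.3%), and only 1 cell reached 10 CPM, at 13.3 CPM. Ocm, the oncomodulin gene, ran from 0 to 4718 CPM with a median of 14.7 CPM. Its mean was 248.7 CPM, against a mean of 44999 CPM in OHCs. Of the markers of hair cells in general, Myo7a, Pou4f3, Tmc1, Myo6 and Lhfpl5 had reads in all 67 cells, while Gfi1 had reads in 53. Myo7a ran from 207.0 to 1449 CPM and Tmc1 from 145.9 to 2237 CPM.

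Marker lists of other cochlear cells were summed in each cell. The sum reached 100 CPM in 2 of 67 cells for supporting cells, 1 for glia, 2 for fibroblasts and lateral wall, 0 for endothelium, 17 for blood and macrophages and 59 for spiral ganglion neurons. Of 8 supporting cell markers, Epyc, Fabp7 and Matn4 had no read in any cIHC. A count of 0 in 67 cells, by the rule of 3 counts and not an exact interval, allows a share of cells with a read of up to 4.48%. Pmp22 of the 5 glial markers, C1qa, C1qc, Cx3cr1 and Tyrobp of the 10 blood and macrophage markers, and Col3a1, Lum and Otor of the 9 fibroblast and lateral wall markers also had none. The 4 endothelial markers together never passed 0.131 CPM. Nefl and Nefm, neurofilament genes on the list for spiral ganglion neurons, had means of 126.1 and 167.6 CPM, while Prph, Slc17a6 and Slc17a7 on that list had no read; Nefl and Nefm overlap each other on opposite strands. C1qb, a complement gene, had at least 10 CPM in 30 cells although C1qa and C1qc had none.

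Cell 49 stood apart from the other 66. Its supporting cell markers summed to 865.7 CPM against at most 135.6 CPM in any other cell, and its fibroblast and lateral wall markers to 1053 CPM against at most 162.9 CPM. Gjb2 was at 293.9 CPM and Gjb6 at 387.9 CPM there, both connexins of supporting cells, and Coch, a gene of lateral wall fibrocytes, was at 457.3 CPM. The same cell had the lowest sum of 11 inner hair cell genes, 4454 CPM, where cell 62 came next at 5313 CPM. Otof was at 431.4 CPM in cell 49, with lower values in cells 11 and 62, 299.3 and 380.3 CPM. Cell 49 also had the highest sum of nuclear oxidative phosphorylation genes, 57048 CPM against a next highest of 32695 CPM. Its median rank correlation with the other cells was 0.48, close to the median of 0.49 over all cells. Cell 11 stood apart in another way, in its mitochondrial share, the percent of counts in all genes with mitochondrial symbols, ribosomal and transfer RNAs included. That share was 0.287%, where the next lowest cell had 1.61%. Without cell 49, the marker levels, list shares, counts of genes and Calb1 correlations below stayed within the limits given at the end. For levels and shares, the loss of a single cell can hardly reach the limit. The spread of Spp1 and Apod rests on cell 49, and mt-Rnr1 has its highest value there, as given below.

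The transcripts of the converted cells were spread over many genes. The 30 genes of highest mean CPM took a median of 16.8% of a cell's counts (8.73 to 21.04%), the 100 highest took 25.3% and the 1000 highest 56.2%. The 737 most abundant genes together held 50% of the mean CPM. Nuclear protein-coding genes took a median of 90.5% of counts, long noncoding RNAs 1.77% and pseudogenes 0.710%.

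Genes of calcium-binding proteins were prominent among the abundant genes. Calm2, which encodes calmodulin, ran from 3901 to 22324 CPM with a median of 9779 CPM, and Calm3 from 100.6 to 870.5 CPM with a median of 368.3 CPM. Cib2, a calcium-binding subunit of the mechanotransduction complex, had a median of 4301 CPM (2081 to 7162 CPM), and Cabp2, a regulator of presynaptic calcium channels, a median of 2616 CPM (867.7 to 4741 CPM). Calb1, the gene of the buffer calbindin, had a mean of 7769 CPM but ran from 0 to 26542 CPM. Alone among the 30 most abundant genes it was not found in every cell: 8 cells had under 10 CPM, and 2 of these had no read.

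Genes of the ubiquitin system were abundant as well. Skp1a, the adaptor of SCF ubiquitin ligases, had a median of 12844 CPM (3068 to 20376 CPM). Fbxo2, an F-box protein that binds glycoproteins and pairs with SKP1 in the organ of Corti, had a median of 5759 CPM (2764 to 9693 CPM). Ubb, a polyubiquitin gene, had a median of 3814 CPM (2232 to 6420 CPM). No cell was under 1000 CPM for any of these 3 genes.

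Of the rest of the 30, Fth1 (ferritin heavy chain) had a mean of 5709 CPM, Acbd7 (an acyl-CoA binding protein) 3934 CPM, Hspa8 and Hsp90ab1 (cytosolic chaperones) 3557 and 2982 CPM, Otof 2951 CPM and Kcna10 (a voltage-gated potassium channel) 2485 CPM. Also among them were H3f3b (histone H3.3) at 3505 CPM, Selenow (a selenoprotein) at 2862 CPM, Fcrlb (an Fc receptor-like protein) at 2671 CPM, Tspan13 (a tetraspanin) at 2546 CPM and Pebp1 (a RAF kinase inhibitor) at 2189 CPM. The noncoding RNA Malat1 had 6484 CPM, the less studied gene Gm30191 had 3378 CPM, and CT010467.1, annotated as ribosomal RNA, had 12616 CPM. CT010467.1 overlaps AY036118 and Gm42418 and is a repeated sequence, so its count is uncertain. Mitochondrial transcripts gave 7 of the 30, among them mt-Cytb at 9510 CPM and mt-Co1 at 7126 CPM.

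Since full-length libraries give long transcripts more reads, levels of different genes were also set side by side per kilobase of exon. On that scale 24 of the 30 stayed among the 30 highest. Acbd7 stood at 7367 CPM per kilobase, Calm2 at 7128, Skp1a at 5796, Gm30191 at 5221 and Fbxo2 at 4511, while Otof, a long transcript, stood at 373.4. Gm23935, an entry annotated as a microRNA of 57 bases, came first at 33776 CPM per kilobase with 1925 CPM, a value that rests on its short annotated length.

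**Figure D1:**
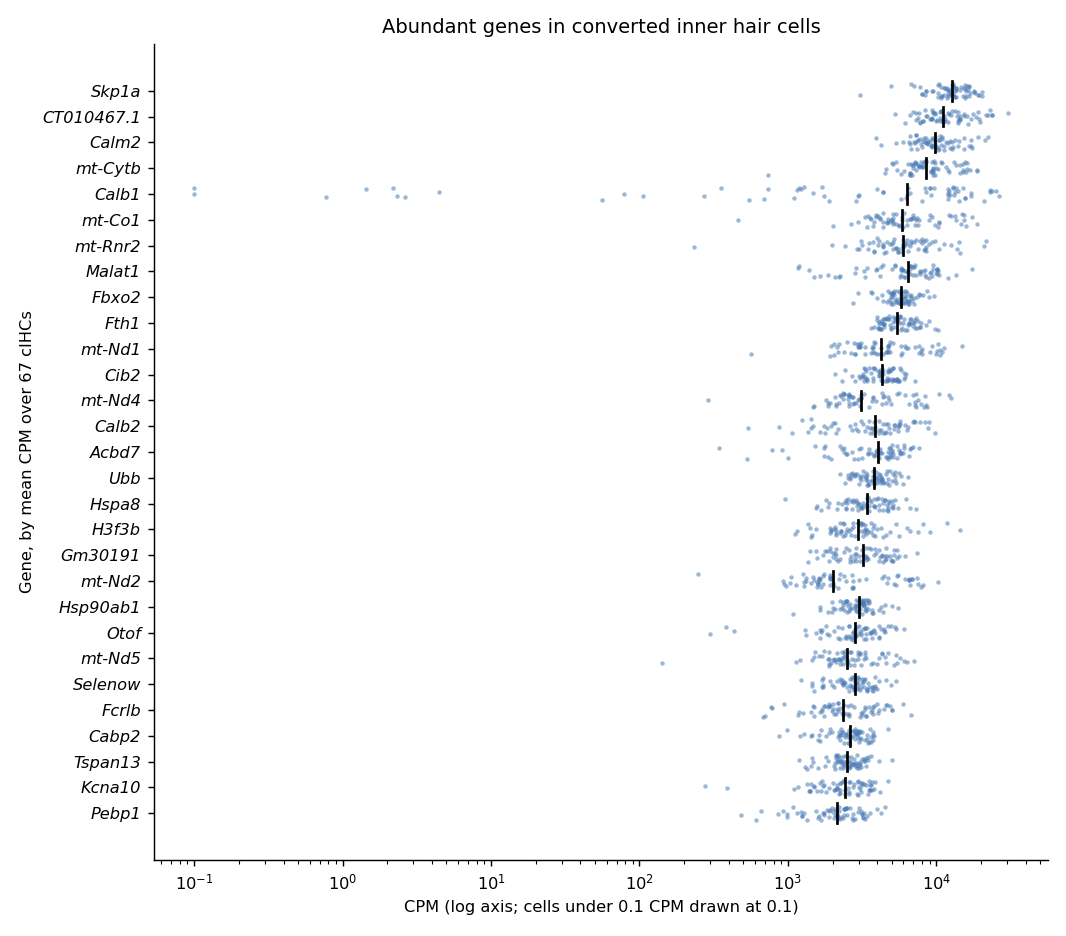
CPM of 29 of the 30 genes with the highest mean over the 67 cIHCs, on a log axis, with 1 point per cell and a black bar at the median; genes are in order of mean CPM. Calb1 reaches from 0 to 26542 CPM, while Fbxo2 lies between 2764 and 9693 CPM and every gene drawn other than Calb1 has at least 10 CPM in each cell.

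Gene lists were summed within each cell. The 24 calcium buffers and sensors held a median of 5.05% of a cell's counts (1.83 to 7.09%). Within the list Calm2, Calb1, Cib2, Calb2 and Cabp2 were among the 30 most abundant genes of the cells, while S100b, Cabp5, Necab1, Hpca and Hpcal1 had means under 10 CPM and Necab2, Ncs1 and Vsnl1 had no read in any cell. The calcium pumps and exchangers held 0.229%, mainly Atp2a3 with a mean of 1307 CPM and the plasma membrane pump Atp2b1 with 759.3 CPM. Atp2b2, the plasma membrane pump of stereocilia, had a mean of 16.6 CPM and reads in 19 cells.

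The 36 stereocilia and mechanotransduction genes held a median of 1.60% of counts (0.582 to 2.27%), and 16 of them had reads in every cell. Among the channel complex, Lhfpl5 had a mean of 1218 CPM and Tmc1 of 1111 CPM, whereas Tmie had 72.5 CPM and Tmc2, the channel subunit of immature hair cells, had 0.914 CPM with reads in 4 cells. Grxcr2, a bundle protein, had 1123 CPM, Myo6 1137 CPM and Ptprq, a phosphatase of the bundle, 728.0 CPM. The tip-link cadherins were lower, with Cdh23 at 129.6 CPM in 59 cells and Pcdh15 at 97.4 CPM in 64 cells. The 22 genes of the ribbon synapse and vesicle release held a median of 0.634%, and after Otof and Slc17a8 came Rab3a, a vesicle GTPase, at 320.9 CPM and Cacna1d, the calcium channel of the ribbon, at 317.1 CPM. Ctbp2, the gene of the ribbon protein RIBEYE, had 167.8 CPM, the scaffold Bsn 14.3 CPM in 27 cells, and Syt4 no read in any cell. Of 12 ion channel genes, Kcna10 held most of the list's counts. Kcnab1, a potassium channel beta subunit, had 486.5 CPM and Chrna9, an efferent acetylcholine receptor subunit, had 223.3 CPM with reads in 66 cells, while its partner Chrna10 had 9.49 CPM with reads in 17 cells. The count of Chrna10 is uncertain, because Art1 overlaps it on the other strand and nothing says whether strand was used.

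Energy genes took a share of similar size. The 83 nuclear genes of oxidative phosphorylation held a median of 2.54% of counts (2.00 to 5.70%), led by Atp5b, the catalytic subunit of ATP synthase, at 1492 CPM and Cox8a, a cytochrome oxidase subunit, at 1186 CPM. The 13 mitochondrially encoded genes held 2.73% (0.251 to 7.79%). The levels within that list were uneven: mt-Cytb, mt-Co1, mt-Nd1, mt-Nd4, mt-Nd2, mt-Nd5 and mt-Nd6 had means from 1141 to 9510 CPM, whereas mt-Co3, mt-Co2 and mt-Atp6 had means of 95.4, 79.2 and 74.4 CPM. Nuclear copies of mitochondrial sequence can share reads with these genes, so their order is uncertain. The 16 genes of glycolysis and lactate held a median of 0.426% (0.188 to 1.55%), with Gapdh at a mean of 1742 CPM, Pkm, a pyruvate kinase, at 768.5 CPM and Aldoa, an aldolase, at 765.7 CPM. The lactate dehydrogenases Ldha and Ldhb had medians of 49.1 and 3.60 CPM, and a single cell held 40.2% of the Ldhb signal.

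Lists for protein synthesis, folding and turnover varied less between cells than the glycolysis list, whose summed level had a CV of 0.476. The 85 cytosolic ribosomal protein genes held a median of 1.91% (1.37 to 2.95%), led by Rpl41 at 1135 CPM. The 14 chaperones held 1.22% (0.812 to 1.75%), the ubiquitin and proteasome list 0.782%, the 12 translation factors 0.674% and the 19 antioxidant genes 0.397%. The CV of the summed level was 0.148 for chaperones, 0.146 for ubiquitin and proteasome and 0.143 for translation factors. Transcription factors were at the low end: 12 hair cell factors together held 0.0698%, with Pou4f3, which hair cells need to survive, at 313.2 CPM with reads in all 67 cells. Gfi1, a repressor of neuronal genes in hair cells, was at 63.1 CPM in 53 cells, and Atoh1, Insm1 and Rfx2 had reads in 1 or 2 cells. The 11 OHC genes summed to 0.0887% (0.0248 to 0.537%), and of these Sri, a calcium-binding protein, and Strip2 had reads in every cell.

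**Figure D2:**
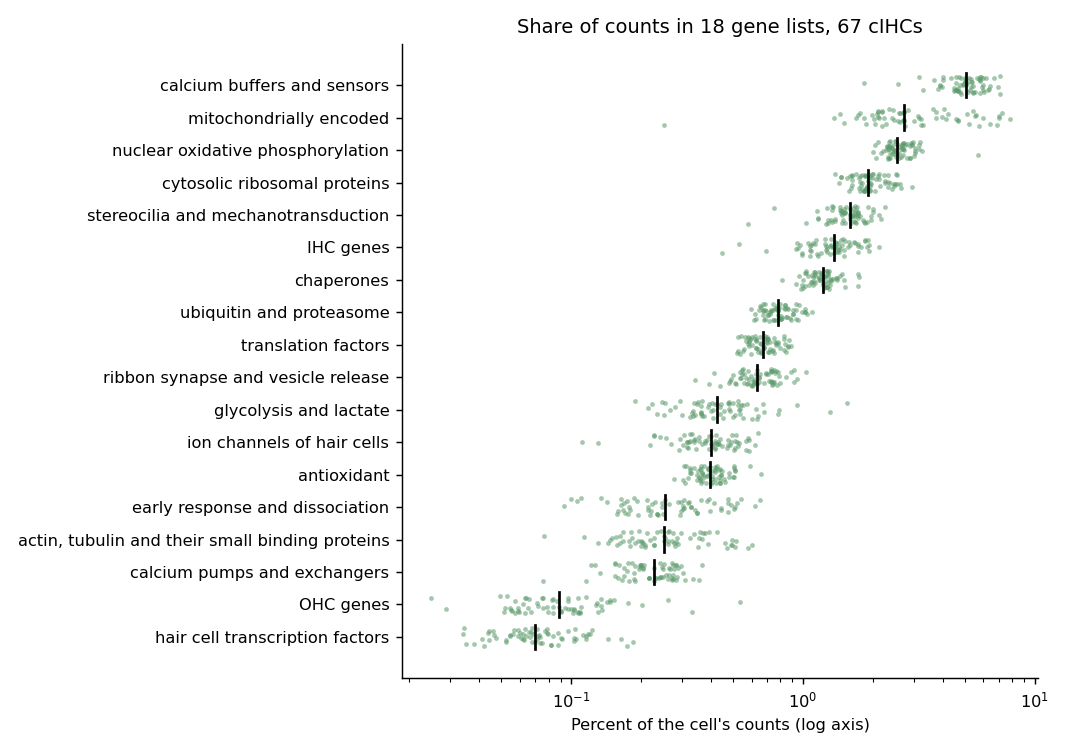
Percent of each cIHC's counts held by 18 gene lists, on a log axis, with 1 point per cell and a black bar at the median. The calcium list lies highest at a median of 5.05% and the hair cell transcription factors lowest at 0.0698%; the single low point of the mitochondrial list is cell 11.

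Of 24396 genes with a read in at least 1 cIHC, 1336 had reads in all 67 cells and 4380 in exactly 1 cell. Thinning every cell to 4670000 reads left 1218 genes in all 67. Detection in every cell went with level. Among 9077 genes averaging 10 CPM or more, 14.1% had reads in every cell and 7.83% had at least 10 CPM in every cell. The share with reads in every cell was 0.723% of genes between 10 and 30 CPM, 2.65% between 30 and 100 CPM, 41.8% between 100 and 300 CPM, 93.7% between 300 and 1000 CPM and 96.1% at 1000 CPM or more, where 73 of 76 genes were found in all cells. The 1336 genes together held a median of 56.1% of a cell's counts (44.8 to 60.6%). In addition, 55 of them had means under 10 CPM, and 48 of these 55 are annotated as pseudogenes, whose reads can come from near-identical parent genes.

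By role, 70 of the 78 ribosomal protein genes with at least 10 CPM, 70 of 77 such nuclear oxidative phosphorylation genes, 13 of 16 ubiquitin and proteasome genes and 9 of 11 translation factors had reads in every cell, beside 14.1% of all genes at that level. The corresponding counts were 8 of 17 antioxidant genes, 6 of 14 genes of actin, tubulin and their binding proteins, 16 of 32 stereocilia genes, 8 of 21 synapse genes, 6 of 11 inner hair cell genes, 4 of 14 glycolysis genes and 2 of 8 hair cell transcription factors. The lists were not matched for level, and a lower level leaves more cells without a read. Of the 1336 genes, 589 also had reads in each of the 32 OHCs, where 776 genes did, or 44.1% of the first list and 75.9% of the second.

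In 6 genes, every cIHC but none of the 32 OHCs had a read. The highest was Lce6a, a late cornified envelope gene on chromosome 3, with a median of 624.3 CPM and a highest cell of 2064 CPM. Near it on the same chromosome lies 2210017I01Rik, with a median of 505.5 CPM. Slc10a7, which encodes a membrane transporter, had a median of 433.7 CPM, Ptprz1, a receptor tyrosine phosphatase, 303.8 CPM, Tpbgl 277.2 CPM and Zyx, an actin-associated protein of focal adhesions, 130.1 CPM. Ptprz1 had at least 66.2 CPM in every cIHC. In the other 5 the lowest cell held under 1 CPM, so their presence in all 67 cells rests on a handful of reads in some of them.

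**Figure D3:**
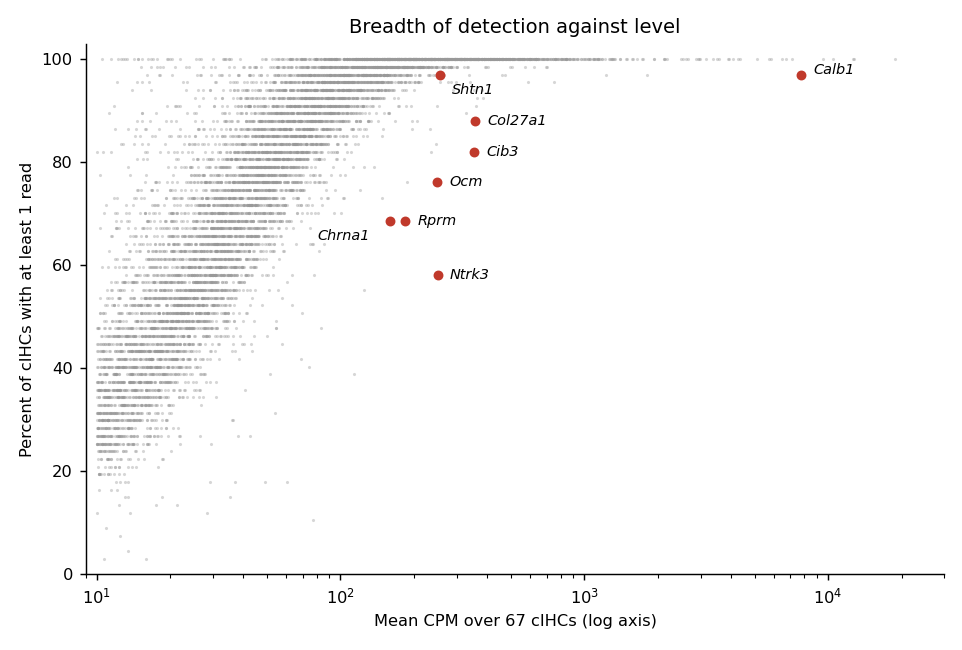
Percent of the 67 cIHCs with at least 1 read against mean CPM (log axis) for the 9077 genes averaging 10 CPM or more; each grey point is a gene and 8 genes are marked in red. Most genes above 300 CPM lie at 100%, while Ntrk3 at 250.5 CPM lies at 58.2% and Calb1 at 7769 CPM lies at 97.0%.

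Cell-to-cell spread was described for the 4159 genes that averaged 50 CPM or more. Their CV ran from 0.218 to 7.79 with a median of 0.793. CV was lower at higher levels, so each gene was also set against the running median of the genes nearest to it in mean, which went from 1.11 at the lowest means to 0.426 at the highest. By that measure 49 genes, or 1.18%, had at least a 2-fold higher CV than genes of their level, and in 7 of all 4159 genes 1 cell held 25% or more of the signal.

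The steadiest gene was Fbxo2, with a mean of 5811 ± 1264 CPM (SD, n = 67 cells) and a CV of 0.218. After it came Atp5h, an ATP synthase subunit, at 474.1 ± 112.2 CPM, Chchd2, a protein of the mitochondrial intermembrane space, at 1041 ± 247.8 CPM, Ubb at 3895 ± 941.6 CPM, Mrfap1 at 909.8 ± 222.5 CPM and Cib2 at 4336 ± 1064 CPM. The 20 genes of lowest CV all had at least 10 CPM in every cell. Among them were Rpl41 and Rps14 of the ribosome, Cox8a of cytochrome oxidase, Hsp90ab1, Skp1a, Fth1 and Atp6v1g1, a subunit of the proton pump. Of the lists, 74 of 77 ribosomal protein genes and 69 of 75 oxidative phosphorylation genes had a CV under the running median, as did 14 of 16 ubiquitin and proteasome genes and 10 of 11 translation factors, beside 50.1% of all 4159 genes. The corresponding counts were 6 of 27 stereocilia genes, 10 of 15 synapse genes, 6 of 13 calcium genes, 2 of 12 glycolysis genes and 1 of 9 early response genes.

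The widest spread for their level, among genes found in at least 50% of cells and with under 25% of the signal in 1 cell, belonged to Rprm. Reprimo, its product, is a p53-induced brake on the cell cycle, and its gene was at 0 in 21 cells, with a median of 27.1 CPM and a highest cell of 2041 CPM, a CV of 1.86 and 3.02 times that of genes of its level. Ntrk3, the receptor of neurotrophin-3, came next, with a median of 0.251 CPM and a highest cell of 1638 CPM; 39 cells had reads, or 58.2% (45.5 to 70.2%), and 36 after thinning. S100a1, a small calcium-binding protein, ran from 0 to 4449 CPM with a median of 411.7 CPM. Gpx2, a glutathione peroxidase, ran from 0 to 6529 CPM with a median of 1061 CPM. By level, 34 cells had at least 1000 CPM of Gpx2, 20 lay between 10 and 1000 CPM and 13 were under 10 CPM.

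Other wide genes had varied roles. Egr1, an immediate early transcription factor, ran from 0 to 2406 CPM with a median of 272.4 CPM. Cib3, a relative of Cib2, ran from 0 to 2053 CPM and had reads in 55 cells, whereas Cib2 itself was among the steadiest. Col27a1, a fibrillar collagen, had a median of 253.3 CPM with reads in 59 cells, and Clu, the chaperone clusterin, a median of 243.6 CPM with reads in 66 cells. Qdpr, which recycles tetrahydrobiopterin, and Abhd12, a lipase, owed part of their spread to single cells that held 11.2% and 13.6% of their signal. The mitochondrial ribosomal RNA mt-Rnr1 ran from 120.6 to 12189 CPM with a median of 1320 CPM. Its highest value lay in cell 49, so part of its spread rests on that cell. The pseudogenes Gm13394, Gm6558 and Gm15459 were also among the 20, and their reads may be shared with near copies. At the edge of the 20, mt-Rnr1 was included at 2.26 times the CV of its level and Calb1 came next at 2.25 times.

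Some spreads rested on 1 cell. Spp1, the gene of osteopontin, had the highest CV of all, 7.79, and Apod, an apolipoprotein, the next, 7.53, but 95.2% of the Spp1 signal and 92.1% of the Apod signal lay in cell 49. Ldhb, Tmsb4x, Mt1, Ocm and Gpx3 each had between 28.3 and 40.2% of their signal in their highest cell. Gm1113 and Resp18 had reads in 26 and 21 cells, with highest cells of 1669 and 593.4 CPM.

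**Figure D4:**
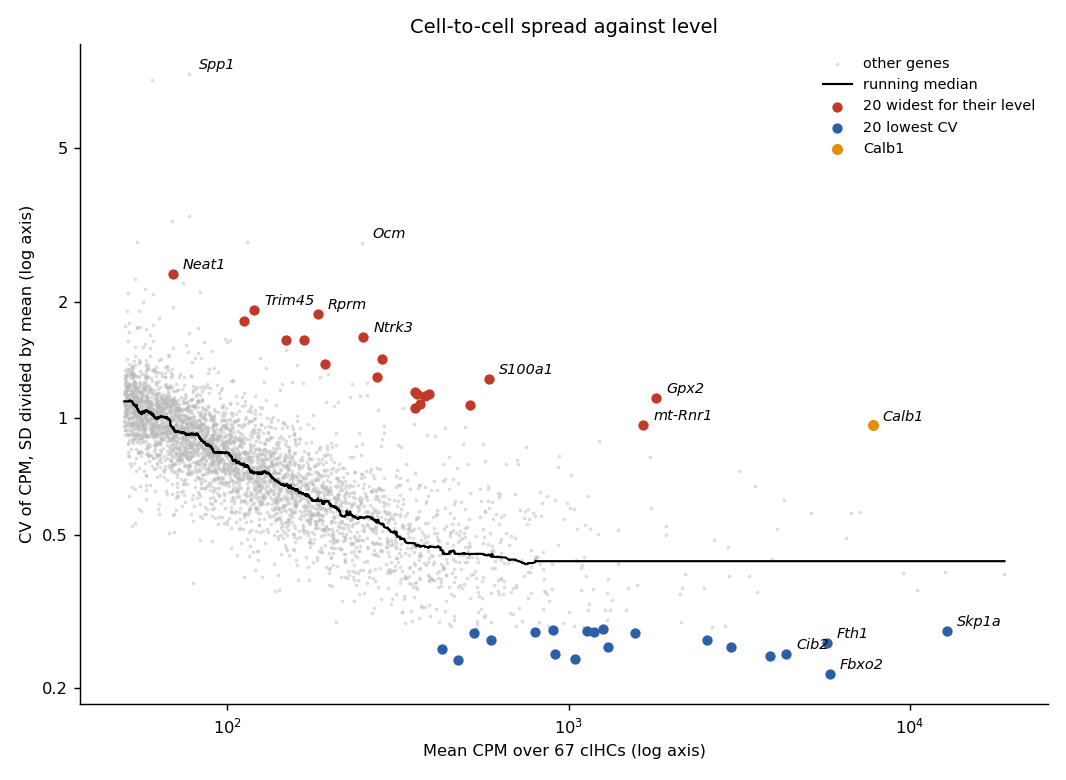
CV of CPM over the 67 cIHCs against mean CPM, both on log axes, for the 4159 genes averaging 50 CPM or more; the black line is the running median, red marks the 20 widest genes for their level, blue the 20 of lowest CV and orange Calb1. Calb1 has a CV of 0.958 at 7769 CPM where the running median is 0.426, and Fbxo2, at a mean of 5811 CPM, has a CV of 0.218. The line is flat at the right because the most abundant genes share 1 window of that median.

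A further view of the spread asked which genes were on in some cells and off in others. On-off genes were those with at least 10 CPM in 20 to 80% of cells and a median of at least 100 CPM in the cells that reached 10 CPM. They were 4.83% of the 4159 genes, and 30 of them lay within 1 cell of the upper limit, so the class has no sharp edge. Among those of highest mean were Gm6558, Col27a1, Cib3, Ntrk3 and Ocm, and further down the amino acid transporter Slc1a5, the early gene Fos and the calcium-binding Tesc. Chrna1, the alpha subunit of the muscle acetylcholine receptor, reached 10 CPM in 38 cells, with a median of 202.9 CPM among them and a highest cell of 825.7 CPM. Atf3, a stress-induced transcription factor, reached 10 CPM in 36 cells, and Fos in 51. Digestion and picking of the cells took place before lysis, and their part in the early gene levels was not tested.

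Spearman correlations across the 67 cells are given as descriptions only, since all values of a cell share its library and its total count. Among the 190 pairs of the 20 widest genes, rho ran from -0.69 to 0.79, with 29 pairs at 0.3 or more and 44 at -0.3 or less. Calb1, chosen for this view after its values were seen, was set against every other gene. Its level was at least 1000 CPM in 51 cells and under 100 CPM in 10.

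S100a1 and Gpx2 ranked lower in cells that ranked higher for Calb1. The Spearman correlation between Calb1 and S100a1 was -0.80 and between Calb1 and Gpx2 -0.76. All 13 cells with S100a1 under 10 CPM had Calb1 of at least 9138 CPM, and all 13 cells with Gpx2 under 10 CPM had Calb1 of at least 8481 CPM. Exceptions lay at both ends. Of the 36 cells with at least 5000 CPM of Calb1, 8 had S100a1 and 8 had Gpx2 at or above the median of all cells. Cell 33 had Calb1 at 13943 CPM with S100a1 at 651.9 CPM and Gpx2 at 1061 CPM, and cell 34 had Calb1 at 6394 CPM with Gpx2 at 6529 CPM. Cell 20 had Calb1 at 55.6 CPM, S100a1 at 31.6 CPM and Gpx2 at 76.8 CPM. S100a1 and Gpx2 went together with a rho of 0.79, and Gpx2 went with Tesc (0.84) and Slc1a5 (0.82).

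Ntrk3 lay on the side of Calb1, with a rho of 0.76. Of the 31 cells with at least 10 CPM of Ntrk3, 30 had at least 1000 CPM of Calb1, and the remaining cell had 547.8 CPM. The pseudogene Gm6831 (0.82), Laptm4b, a lysosomal membrane protein (0.71), the cytokine signalling inhibitor Socs3 (0.69) and Gapdh (0.68) also went with Calb1. Tbx2 had a rho of 0.58 with Calb1 and Rprm 0.47. On the opposite side were mt-Rnr1 (-0.76), Calb2 (-0.61), Chrna1 (-0.63), Lrrc52, a potassium channel subunit (-0.65), Otof (-0.49) and Ocm (-0.40). Slc17a8 and Kcna10 had rho of -0.11 each. Over 4146 other genes, all averaging 50 CPM or more and found in 50% of cells or more, 18 had a rho of 0.6 or more with Calb1 and 25 of -0.6 or less.

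Summed lists lay on both sides. The rho with Calb1 was 0.65 for glycolysis and lactate and 0.60 for actin, tubulin and their binding proteins. It was -0.69 for the calcium list, to which Calb1 itself was not added, -0.60 for the mitochondrially encoded genes, -0.52 for the inner hair cell genes and -0.47 for the stereocilia genes. Nuclear oxidative phosphorylation genes and antioxidant genes had rho of 0.23 and 0.13.

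Measures of the libraries moved with Calb1 too. Its rho was 0.54 with the number of genes found in a cell, 0.48 with total counts and -0.62 with the mitochondrial share over all mitochondrial symbols. Their part in the correlations was not tested. In the 55 cells with Xist, rho between Calb1 and S100a1 was -0.79, Gpx2 -0.74, Ntrk3 0.78 and mt-Rnr1 -0.80, and in the 12 cells with Y-linked reads the values were -0.71, -0.85, 0.75 and -0.29. Median Calb1 was 6428 CPM in the 55 cells and 5291 CPM in the 12. In the 32 OHCs, where Calb1 had a mean of 378.8 CPM, rho with S100a1 was -0.22 and with Gpx2 0.03. Whether these differ between the groups was not tested.

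The number in a cell's title, whose meaning the labels do not give, moved with these measures. The 12 cells with Y-linked reads were numbers 1 to 12 and the 55 with Xist were 13 to 67. Over the 67 cells, the rho with the number was 0.46 for Calb1, 0.72 for total counts and -0.61 for the mitochondrial share. Cells 13 to 23 had Calb1 from 0 to 1739 CPM with a median of 105.1 CPM, and a median mitochondrial share of 7.28%. Cells 57 to 67 had a median Calb1 of 13414 CPM and a median mitochondrial share of 2.61%. Within runs of 11 consecutive numbers among the cells with Xist, rho of Calb1 was -0.49 to -0.88 with S100a1 and -0.41 to -0.75 with Gpx2 in the 5 runs. With Ntrk3 it was 0.48 to 0.82 in 4 runs, and in cells 13 to 23 Ntrk3 had no read. Each run held few cells, and what part the number has in the correlations over all cells was not tested.

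**Figure D5:**
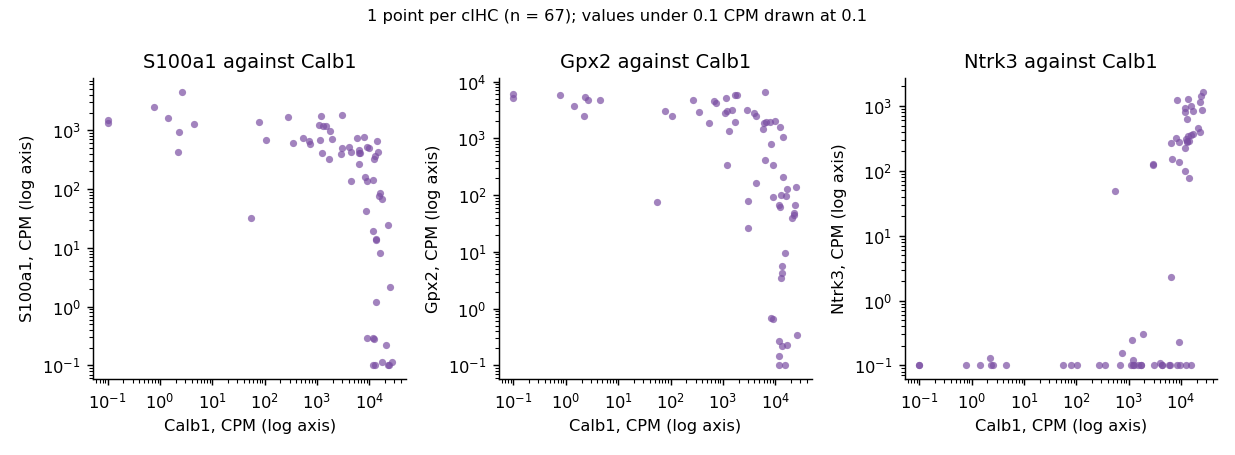
CPM of S100a1, Gpx2 and Ntrk3 against CPM of Calb1 in the 67 cIHCs, 1 point per cell, all axes logarithmic, with values under 0.1 CPM drawn at 0.1. Cells under 10 CPM of S100a1 or Gpx2 lie at the right, above 8481 CPM of Calb1, and cells with at least 10 CPM of Ntrk3 lie above 547.8 CPM of Calb1.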

How the data were processed

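The authors deposited 1 table of whole-number read counts per gene and cell, for 55291 gene symbols, and the unit was judged from the values. The submitters' processing notes name HISAT2 2.2.1, StringTie 2.2.1, featureCounts 2.0.1 and the build mm10, without their roles. Filters and the strand setting are not given in the sources used here. No cell, gene or doublet filter was applied to the 67 cIHCs, and 0 columns were without a sample and 0 pairs of cells were identical. Counts were divided by the cell's total to give CPM. Biotypes, overlaps, coordinates and union exon lengths came from GENCODE M21 (GRCm38), which holds 96.2% of the symbols and need not be the authors' annotation.

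CV and breadth were computed over the 67 cells. The genes named are the 30 highest by mean CPM and the 20 highest per kilobase, the 20 of lowest CV, the 20 widest for their level, the 10 of highest CV, the 20 on-off genes of highest mean, and members of gene lists drawn from general knowledge of hair cells. The 6 genes of every cIHC and no OHC, Calb1 as a reference for correlations and its partners were singled out after their values were seen. So were cells 11, 20, 33, 34, 49 and 62. Values of some genes that these rules name enter the counts and sums but are not reported here. The members and lists were chosen with earlier results of these data known. The spread step was tested on simulated counts, and the on-off step was not. Python 3.11.15 with numpy 2.4.6, pandas 2.3.3 and scipy 1.17.1 was used. Alternatives were other scalings, level and detection limits, measures of spread and window sizes, thinned cells, levels from summed counts, medians or per kilobase, and leaving out the highest cell, while leaving out cell 49, the cells grouped by Xist or Y-linked reads, runs of 11 consecutive cell numbers, and 3 other scalings or depths for the Calb1 correlations were added after seeing the data.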

Additional observations from a re-analysis of the deposited data

How the results depend on the processing

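No paired analysis was possible because no result comes from a test. Of 167 values under alternatives, 155 stayed within a set limit and 12 moved further. The limit was 1.5 times for counts and the SD over cells for levels and shares. For the median CV it was a set fraction of its value. For correlations it was a standard error that takes cells as independent. Reversals of direction were not scored. With the limit on mean level at 1 CPM in place of 50 CPM, the median CV was 1.66 and 106 genes had at least a 2-fold higher CV than their level. With the limit at 100 CPM the median CV was 0.623 and 68 genes were on-off. The choice of spread measure decided which genes were called widest: 10 of the 20 were shared when ranked by the SD of log2(CPM + 1), and 3 when ranked by the interquartile range over the median, where 8 of the 20 steadiest were shared. The cause was not tested. In the 12 cells with Y-linked reads, the rho of Calb1 was -0.71 with S100a1, -0.85 with Gpx2, 0.75 with Gapdh, -0.78 with Calb2 and -0.29 with mt-Rnr1. Without cell 49 none of the 30 recomputed values moved further than its limit, which for levels and shares the loss of 1 cell can hardly reach. Of the 20 steadiest genes 14 were shared, and of the 20 widest 18. Depth limits the low end: genes found in all 67 cells went from 1336 to 1218 when cells were thinned, and low genes are not shown to be absent.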
